A study of Canis lupus familiaris with 13 samples.

Results

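The 9 genes described here code for components of the complement system and for the receptors of its small signaling fragments: the classical pathway proteases C1R and C1S, the convertase component C2, the central component C3, the alternative pathway genes CFB and CFP, the inhibitor SERPING1, and the anaphylatoxin receptors C3AR1 and C5AR1. They were chosen by symbol from the 43427 gene symbols of the count table, and the 3 genes of the C1q chains were not among them. All 9 had a row and passed the filter on low counts, as did 20118 genes in all. The rule itself used no measured value, but the members were chosen with earlier results of these data known. Comparisons of the members with all genes are therefore descriptions.

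IMAX, a nanoparticle of a polyethyleneimine and lithocholic acid conjugate that carries paclitaxel and a cyclic dinucleotide, was injected into naturally occurring tumors of companion dogs. RNA from 13 biopsies of 4 tumors in 3 dogs was sequenced, and each biopsy is 1 library. The question of the design was how gene expression in the treated mass compared with that before treatment, shortly after treatment (early) and at a later time (late). No untreated dog was sampled, so time, repeated biopsy and treatment cannot be told apart.

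Dog RV, a spayed mixed breed dog, had a soft tissue sarcoma. It was sampled before treatment, 2 days after the second dose, and 2 weeks after the third dose at the injection site and at a site adjacent to it, which gave 4 libraries. Dog CL, an intact Shih Tzu, had a cranial and a caudal mammary tumor, which share a host. Each gave a biopsy before treatment, an early one 1 week after its second dose and a late one 1 month after that dose, 6 libraries in all. Dog BM, a spayed Great Pyrenees, had a mammary carcinoma. Its 3 libraries come from biopsies before treatment, 1 week (early) and 3 weeks (late) after dose 2. The before group thus held 4 libraries, the early group 4 and the late group 5. The times of the early and the late biopsies differ between dogs. All early biopsies followed the second dose, while the late ones followed the third dose in RV and the second in CL and BM. Apart from the late RV sites, each tumor had 1 library per time, so a change within a tumor has no replicate check.

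Complement is a cascade of plasma proteases that tags cells with fragments of C3 and calls in leukocytes through the fragments C3a and C5a. The classical pathway begins when C1q binds its target and C1r activates C1s, which cleaves C4 and C2. The alternative pathway amplifies deposited C3b through factor B and properdin, and both pathways meet at C3. The liver makes most circulating complement, and macrophages, fibroblasts, endothelial cells and epithelial cells make part of it in tissues, where interferons are known to raise several components. In whole biopsies, a difference in the number of cells of a type and a difference in RNA per cell cannot be told apart.

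The libraries held between 11622444 and 29931125 counts (median 19416991). Levels are given as CPM, counts scaled to a common library size with factors from the trimmed mean of M values (TMM). The lowest count of any of the 9 genes was 16, for CFP in the CL caudal library before treatment (95% exact Poisson interval 9.15 to 26.0, which covers counting error only). Some libraries stood apart in their makeup. In the early RV library the summed level of 7 neutrophil genes was 6715 CPM against 41.8 before treatment, that of 8 epidermal genes was 2491 CPM against 64.3, and that of 9 fibroblast genes was 2291 CPM against 23045. In the late BM library the fibroblast genes summed to 101908 CPM. The epithelial genes were all above 0 in every library, but summed to 302 CPM in the CL caudal tumor before treatment, below the 982 CPM of the sarcoma. The median level of genes in gene-dense parts of the genome, relative to genes in gene-poor parts, ran from -1.36 (early RV) and -1.24 (CL caudal before treatment) to 1.22 (late BM) on the log2 scale. Of the 9 members, 7 lie in dense parts (40 to 85 other gene starts within 500000 bases, where the densest 25% of genes had at least 37), and CFP (26) and C3AR1 (31) do not. The part of these differences in the results was not tested.

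In the assembly UU_Cfam_GSD_1.0 the members sit on 6 chromosomes. C1S (chromosome 27, 8109060 to 8118714) and C1R (chromosome 27, 8134262 to 8143646) are neighbors separated by 15547 bases, and C3AR1 (chromosome 27, 8662656 to 8670749) lies 519009 bases beyond C1R. C2 (chromosome 12, 1491715 to 1533005) and CFB (chromosome 12, 1533422 to 1539539) are 416 bases apart, and CFB ends 2 bases before NELFE. C2 overlaps ZBTB12 by 1489 bases, and how the counting treated strand was not given in the sources used here, so counts of C2 may include reads of that gene. C3 lies on chromosome 20 (53965350 to 53997908), CFP on chromosome X (41448168 to 41453913), SERPING1 on chromosome 18 (39039067 to 39051835) and C5AR1 on chromosome 1 (109365784 to 109381523).

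**Figure D1:**
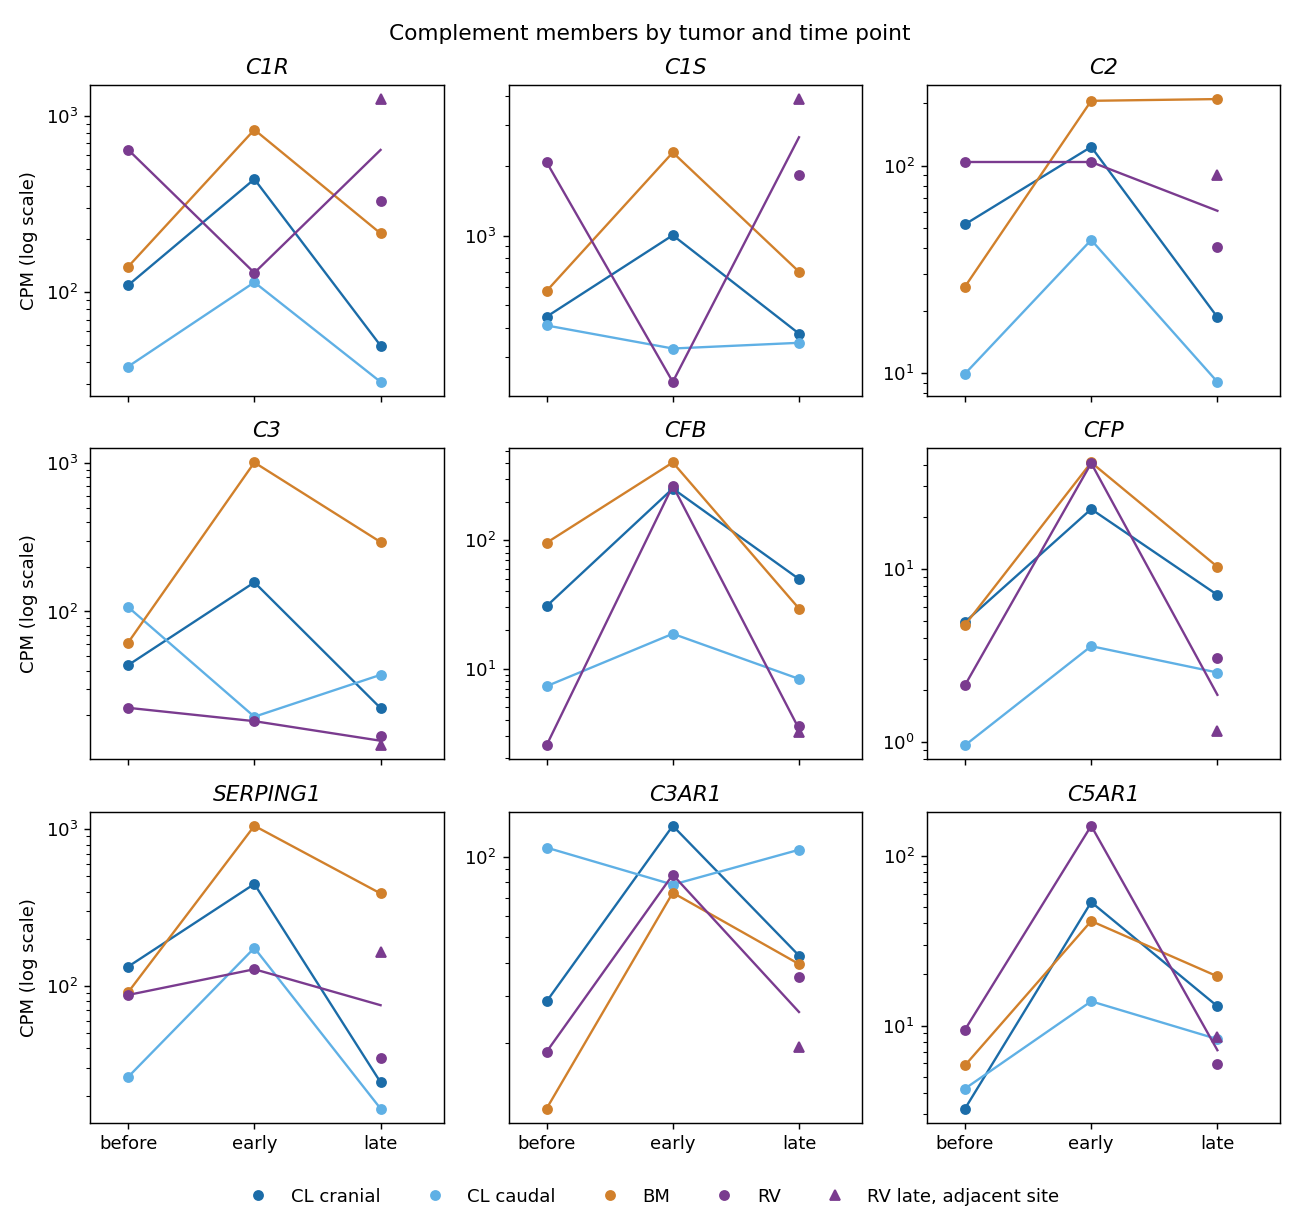
Level of each member in CPM (log axis) in every library, by time point, with 1 color per tumor. Points are libraries, lines join a tumor's time points, and the line ends at the geometric mean of the late RV sites. C5AR1 was the only member whose 4 early libraries (13.9 to 150.4 CPM) were all above the 4 libraries before treatment (3.24 to 9.46 CPM).

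Among the classical pathway proteases, C1R and C1S were higher early in the CL cranial and BM tumors and lower in the early RV biopsy. C1R codes for the protease that activates C1s. Before treatment C1R was at 109.7 CPM in CL cranial, 37.9 in CL caudal, 139.8 in BM and 645 in RV. At the early biopsy it was at 439, 114, 838 and 129 CPM in the same order. At the late biopsy it was at 49.8, 31.0 and 216 CPM in the mammary tumors, at 331 CPM at the RV injection site and at 1250.3 CPM beside it. C1R was thus higher early than before in the 3 mammary tumors, at 4.0-fold, 3.0-fold and 5.99-fold, and 0.201-fold in RV, and the time groups overlapped.

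C1S, which codes for the protease that cleaves C4 and C2, had the highest single count of the 9 genes (64322, in the early BM library). It was at 447 CPM in CL cranial, 409.9 in CL caudal, 577 in BM and 2075 in RV before treatment. It was at 1004, 326, 2284 and 234 CPM at the early biopsy. The late levels were 378, 345 and 699 CPM in the mammary tumors and 1818 and 3881 CPM at and beside the RV injection site. The early RV library was the lowest of all 13 for C1S and the late site beside the injection was the highest, a 16.6-fold span within 1 mass. On the log2 scale the early change of C1S was 1.17 in CL cranial, -0.33 in CL caudal, 1.98 in BM and -3.15 in RV.

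Of the components downstream, C2 was higher early in the mammary tumors, and C3 went in different directions in different tumors. C2 supplies the catalytic part of the classical and lectin C3 convertase. C2 was at 52.1 CPM in CL cranial, 9.93 in CL caudal, 26.1 in BM and 104 in RV before treatment. At the early biopsy its levels were 123, 43.8, 205 and 104 CPM. At the late biopsy C2 was at 18.6, 9.07 and 209 CPM in the mammary tumors, and at 40.6 and 90.2 CPM at and beside the RV injection site. The early level was 2.36-fold, 4.38-fold and 7.84-fold that before treatment in the mammary tumors and 1.01-fold in RV. Late BM was close to its early level, at 7.97-fold that before treatment, while late CL cranial was at 0.359-fold.

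C3 codes for the protein on which all pathways converge. C3 was at 43.6 CPM in CL cranial, 107 in CL caudal, 61.8 in BM and 22.5 in RV before treatment. The early levels were 157, 19.6, 1005 and 18.3 CPM. Late levels were 22.4, 37.5 and 293 CPM in the mammary tumors and 14.5 and 12.6 CPM at and beside the RV injection site. C3 was 16.2-fold higher early in BM and 3.59-fold higher in CL cranial, and lower early in CL caudal (0.184-fold) and RV (0.813-fold), so the tumors of dog CL moved apart. The RV libraries, at 12.6 to 22.5 CPM, were all below the BM libraries, and their 4 values lay within a narrow band.

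The alternative pathway genes CFB and CFP were higher early than before treatment in 4 of 4 tumors and lower late than early in 4 of 4. CFB codes for factor B, which supplies the catalytic part of the alternative C3 convertase. CFB was at 30.7 CPM in CL cranial, 7.30 in CL caudal, 95.6 in BM and 2.53 in RV before treatment. It was at 253, 18.7, 404 and 266 CPM at the early biopsy. The late levels were 49.9, 8.32 and 29.4 CPM in the mammary tumors, and 3.59 and 3.21 CPM at and beside the RV injection site. RV went from the lowest CFB level of the 13 libraries to the second highest, a 101-fold difference, whereas CL caudal stayed low throughout, at 18.7 CPM early.

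CFP codes for properdin, which stabilizes the alternative convertase and is made by myeloid cells. CFP was at 4.94 CPM in CL cranial, 0.957 in CL caudal, 4.75 in BM and 2.13 in RV before treatment. Its early levels were 22.2, 3.58, 41.3 and 40.9 CPM. The late levels were 7.08, 2.52 and 10.3 CPM in the mammary tumors and 3.05 and 1.15 CPM at and beside the RV injection site. The early level was 4.44-fold, 3.49-fold, 8.54-fold and 18.4-fold that before treatment in CL cranial, CL caudal, BM and RV. The groups still overlapped, because CL caudal was lower early than CL cranial was before treatment.

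SERPING1, which codes for the C1 inhibitor that inactivates C1r and C1s, was also higher early in 4 of 4 tumors. Its levels before treatment were 133 CPM in CL cranial, 26.3 in CL caudal, 91.3 in BM and 87.7 in RV. At the early biopsy they were 448, 175, 1053 and 128 CPM. At the late biopsy SERPING1 was at 24.3, 16.5 and 389.6 CPM in the mammary tumors, at 34.7 CPM at the RV injection site and at 164 CPM beside it. The early difference was 3.37-fold, 6.62-fold and 11.5-fold in the mammary tumors and 1.46-fold in RV. In the late libraries SERPING1 was below its level before treatment in both CL tumors and above it in BM, at 0.183-fold, 0.629-fold and 4.27-fold.

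Both anaphylatoxin receptors, which couple C3a and C5a to myeloid cell activation, were higher early in most tumors, and C5AR1 had the larger difference. C3AR1, the receptor for C3a, was at 28.7 CPM in CL cranial, 108 in CL caudal, 11.4 in BM and 18.6 in RV before treatment. At the early biopsy C3AR1 was at 130.3, 78.5, 73.2 and 85.5 CPM. At the late biopsy it was at 42.6, 106 and 39.6 CPM in the mammary tumors and at 35.4 and 19.4 CPM at and beside the RV injection site. The early levels lay close together, whereas before treatment CL caudal was far above the others, and CL caudal was the tumor in which C3AR1 was lower early (0.728-fold, against 4.53-fold, 6.38-fold and 4.58-fold in CL cranial, BM and RV).

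C5AR1, the receptor for C5a, was at 3.24 CPM in CL cranial, 4.25 in CL caudal, 5.83 in BM and 9.46 in RV before treatment. It was at 53.4, 13.9, 41.3 and 150.4 CPM at the early biopsy. The late levels were 13, 8.32 and 19.5 CPM in the mammary tumors and 5.97 and 8.59 CPM at and beside the RV injection site. The 4 early libraries were all above the 4 libraries before treatment, which held for 1 of the 9 members and for 2.71% of all genes tested, and the early libraries overlapped the late ones. No member had all its early libraries above all its late libraries, which held for 4.49% of all genes. The early level of C5AR1 was 16.0-fold that before treatment in CL cranial, 3.23-fold in CL caudal, 6.97-fold in BM and 15.7-fold in RV.

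Over the 4 tumors, the 9 fitted changes early against before were all positive, with a median of 1.72 on the log2 scale against 0.25 over all genes tested. The changes were fitted with edgeR (quasi-likelihood test, blocked by tumor), with Benjamini-Hochberg adjustment over all 20118 genes. No member passed an adjusted p of 0.05, which 0.00497% of all genes did. The largest fitted change was that of CFB, at 3.61 ± 0.93 (SE), with an adjusted p of 0.192. C5AR1 followed at 3.32 ± 0.65 (adjusted p = 0.132), CFP at 3.08 ± 0.68 (adjusted p = 0.154), SERPING1 at 2.14 ± 0.75 (adjusted p = 0.348) and C3AR1 at 1.72 ± 0.51 (adjusted p = 0.264). These 5 members were under an unadjusted p of 0.05 and higher, as were 7.70% of all genes. Fitted changes were 1.56 ± 0.79 for C1R, 1.39 ± 0.64 for C2, 0.79 ± 0.85 for C3 and 0.50 ± 0.79 for C1S. C3 and C1S were each higher early in 2 tumors and lower in 2. For C1S the plain mean of the changes within tumors was -0.08.

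Taken tumor by tumor, 5 of the 9 members (C2, CFB, CFP, SERPING1 and C5AR1) were higher early in 4 of 4 tumors, against 10.8% of all genes. For each of the 5, the exact sign-flip permutation test over the 4 tumors gave a two-sided p of 0.13, the smallest that 4 tumors allow. The value of C2 in RV was 0.01 on the log2 scale. With DESeq2's Wald test in place of edgeR, 956 of the 20118 genes were called, among them CFB, CFP, C3AR1 and C5AR1. Leaving out RV, the fitted change of CFB was 2.17, that of CFP 2.43 and that of C5AR1 2.87. Without BM the fitted changes of C1S and C3 turned negative, at -0.30 and -0.17.

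**Figure D2:**
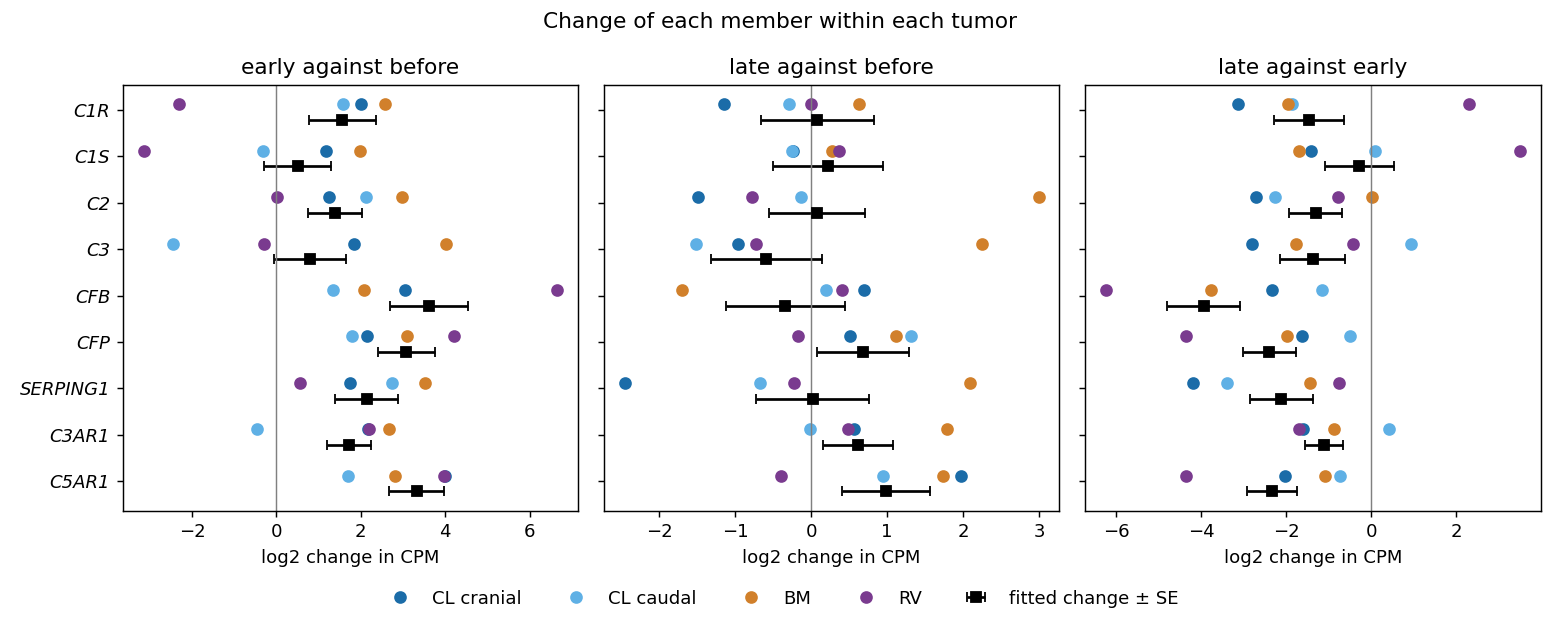
Log2 change in CPM of each member within each tumor (colored points) and the fitted change with its SE (black squares), for the 3 comparisons of time groups. Early against before, all 9 fitted changes are positive with a median of 1.72, while late against before they lie around 0 with a median of 0.08. C1S and C3 are each lower early in 2 of 4 tumors.

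Late against before treatment, the members had no shared direction. The median fitted change was 0.08 on the log2 scale against -0.05 over all genes, with 7 members higher and 2 lower. No member passed the adjusted threshold in edgeR's test (0% of all genes did) and 0 were under an unadjusted p of 0.05, against 4.0% of all genes. DESeq2's Wald test called 0 members as well. No member was higher in 4 of 4 tumors (7.13% of all genes) or lower in 4 of 4 (8.04%). The largest fitted difference was that of C5AR1, at 0.98 ± 0.58, which was higher late in the 3 mammary tumors (1.97, 0.95 and 1.73) and lower in RV (-0.40).

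Between the late and the early biopsies, the fitted changes of all 9 members were negative, with a median of -1.47 against -0.35 over all genes. No member passed the adjusted threshold, as 0.00994% of all genes did. CFB came closest at -3.94 ± 0.86 (adjusted p = 0.0603 in edgeR's quasi-likelihood test), followed by C5AR1 at -2.33 ± 0.59 (adjusted p = 0.0640) and CFP at -2.40 ± 0.62 (adjusted p = 0.0662). With SERPING1 (-2.12 ± 0.74) and C3AR1 (-1.11 ± 0.45), 5 members were under an unadjusted p of 0.05 and lower, as were 17.7% of all genes. CFB, CFP, SERPING1 and C5AR1, 4 of the 9, were lower late than early in 4 of 4 tumors, as were 17.4% of all genes. Without the filter on low counts CFB, CFP and C5AR1 were among 1081 genes that passed the adjusted threshold. The number of genes tested without the filter is not given here. With DESeq2's Wald test CFB, CFP, SERPING1 and C5AR1 were among the 4809 of 20118 genes called.

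In RV the early change of C1R was opposite to that in the 3 mammary tumors, and CFB had its largest difference. C1S was lower early in RV, as it was in CL caudal. For C1R, the early change in RV minus that in the mammary tumors was -4.35 ± 1.16 on the log2 scale (adjusted p = 0.0987 for the interaction in edgeR). For C1S it was -4.16 ± 1.14 (adjusted p = 0.100), and for CFB it was 4.54 ± 1.09 (adjusted p = 0.0913). None of the 9 members passed the adjusted threshold for this interaction, nor did any gene (0%). The early RV biopsy was taken at 2 days and the early mammary biopsies at 1 week. Per the paper, histology of that RV biopsy showed wide necrosis and bleeding, and tumor cells could not be identified with certainty. Tumor type, dog, time and the tissue sampled thus cannot be told apart.

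In the single late BM library C2, C3 and SERPING1 were above their levels before treatment, whereas they were below them in the other tumors. On the log2 scale, late against before, C2 was 2.99 higher in BM and lower in the other tumors (-1.48, -0.13 and -0.78). C3 was 2.24 higher in BM, against -0.96, -1.51 and -0.73 in CL cranial, CL caudal and RV. SERPING1 was 2.09 higher in BM, against -2.45, -0.67 and -0.22. The interaction of BM against the other tumors was 3.68 ± 1.08 for C2 (adjusted p = 0.618 in edgeR), 3.30 ± 1.44 for C3 (adjusted p = 0.728) and 2.70 ± 1.63 for SERPING1 (adjusted p = 0.774), and 0 of the 9 members and 0% of genes passed the adjusted threshold. CFB went the other way in BM, at -1.70. Per the paper, the center of the BM mass was mineralized at the late biopsy and had features like those of osteosarcoma. The fibroblast genes were at 1298 CPM before treatment in BM and at 101908 CPM late. The part of the tissue change and of the fibroblast genes in these differences was not tested.

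The late RV sites, sampled from 1 mass on the same day, showed how far biopsies of a treated tumor can differ. Beside the injection site, SERPING1 was 4.73-fold, C1R 3.78-fold, C2 2.22-fold and C1S 2.13-fold the level at the injection site. CFP was 0.376-fold and C3AR1 0.547-fold, while C3 (0.871-fold), CFB (0.892-fold) and C5AR1 (1.44-fold) were closer. For C1R this gap was 1.92 on the log2 scale. Each gap is between 2 single libraries, so it is not comparable with the SE of a change fitted over 4 tumors.

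Ratios between members within a library do not depend on the scaling of that library, and they compare libraries, since gene lengths are not divided out. Of the 36 pairs of members, the ratio moved in 1 direction in 4 of 4 tumors for 10 pairs early against before and for 2 pairs late against before. Over all pairs of the genes tested, 17.6% did so early and 15.8% late, and the pairs share members. SERPING1 counts relative to C1S counts were higher early in all 4 tumors. Before treatment there were 3.36 C1S counts for each SERPING1 count in CL cranial, 15.6 in CL caudal, 6.32 in BM and 23.7 in RV. At the early biopsy the 4 tumors were close together, at 2.24, 1.87, 2.17 and 1.83. At the late biopsy the ratio was 15.6 in CL cranial, 20.9 in CL caudal, 1.80 in BM, 52.5 at the RV injection site and 23.7 beside it. The ratio was thus lower early in each tumor and, among the late libraries, lowest in BM.

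The ratio of C1R to C1S counts was higher early in 4 of 4 tumors as well, by 0.83, 1.92, 0.60 and 0.83 on the log2 scale in CL cranial, CL caudal, BM and RV, although both genes were lower early in RV. The ratio of C2 to SERPING1 counts was lower early by nearly the same amount in each tumor, at -0.51, -0.59, -0.55 and -0.54. Late against before this ratio was higher in the mammary tumors (0.97, 0.54 and 0.91) and lower in RV (-0.56). For the receptors, C3AR1 counts relative to C5AR1 counts were 8.84 in CL cranial, 25.4 in CL caudal, 1.95 in BM and 1.96 in RV before treatment. They were 2.44, 5.63, 1.77 and 0.568 at the early biopsy, so this ratio was lower early in 4 of 4 tumors.

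**Figure D3:**
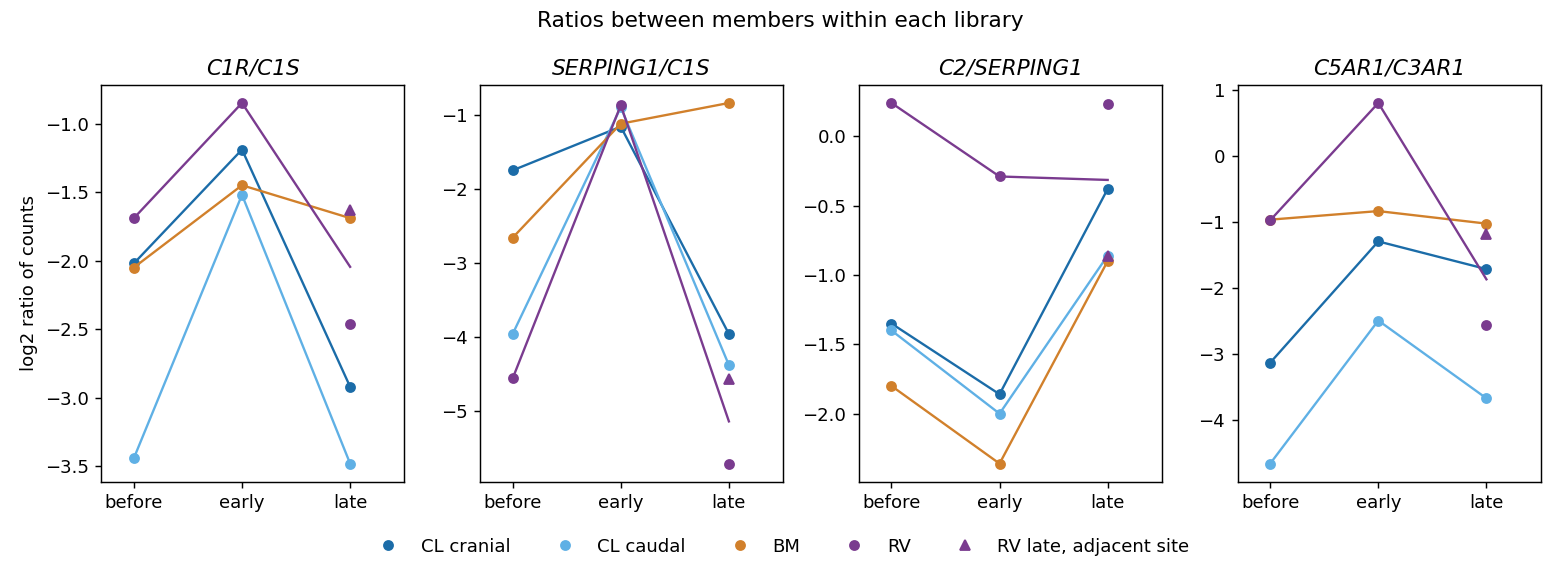
Log2 ratio of the counts of member pairs in each library (y axis) by time point, with 1 color per tumor and the late RV sites as separate points. SERPING1 over C1S converged in the early libraries, at 2.24, 1.87, 2.17 and 1.83 C1S counts per SERPING1 count, and C2 over SERPING1 was lower early by 0.51 to 0.59 on the log2 scale in every tumor.

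Of 44 other complement genes listed, 37 had a row and 30 were tested. Early against before, 27 of the 30 had a positive fitted change and 3 a negative one, with a median of 1.36 on the log2 scale. In edgeR's test 0 passed the adjusted threshold, while 11 were under an unadjusted p of 0.05 and higher, as were 7.70% of all genes. Of the 30, 7 were higher in 4 of 4 tumors, against 10.8% of all genes. The largest of these were ITGB2, the beta chain of the complement receptors that bind iC3b (3.28 ± 0.61, adjusted p = 0.117), C5AR2, the second C5a receptor (2.63 ± 0.53, adjusted p = 0.139), and ITGAM, the alpha chain of complement receptor 3 (2.61 ± 0.58, adjusted p = 0.154). ITGB2 was at 17.1, 7.90, 17.9 and 7.40 CPM before treatment in CL cranial, CL caudal, BM and RV and at 110.3, 36.5, 99.3 and 235 CPM early. The early range of ITGB2 was above its range before treatment, which held for 2.71% of all genes tested.

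C1QA, C1QB and C1QC, the chains of the molecule that starts the classical pathway, had fitted changes of 1.20 ± 0.66, 1.76 ± 0.63 and 1.52 ± 0.60 early against before, with adjusted p of 0.521, 0.361 and 0.407. Like C1R and C1S, all 3 were lower early in RV, where C1QB went from 52.6 to 28.6 CPM, and they were higher early in CL cranial and BM.

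Grouped by role, 6 of 6 receptors tested had a positive fitted change early (median 2.22), and 7 of 7 fluid-phase inhibitors did (median 1.57). So did 3 of 4 terminal components (1.42), 4 of 4 further classical genes (1.40) and 3 of 4 lectin pathway genes (0.68). The same held for 3 of 4 membrane inhibitors (0.64) and for CFD, the protease that cleaves factor B (1.42). A positive fitted change did not mean a higher level in every tumor. The median over all genes tested was 0.25, and the share of all genes with a positive fitted change is not given here. Of the receptors 4 of 6, and of the fluid-phase inhibitors 1 of 7, were higher early in 4 of 4 tumors, against 10.8% of all genes. So were 1 of 4 classical and 1 of 4 lectin pathway genes, but no terminal component, no membrane inhibitor and not CFD. The inhibitor CFI, with a fitted change of 0.08, was higher early in BM (2.52). It was lower in CL cranial (-0.24), CL caudal (-1.50) and RV (-1.31). CLU, which codes for clusterin, an inhibitor of the terminal complex, had similar early changes in the 4 tumors, at 1.48, 1.47, 1.63 and 1.78 on the log2 scale in CL cranial, CL caudal, BM and RV, at different levels. It was at 2799, 2659, 1693 and 83.4 CPM before treatment in the same order, and at 7807, 7391, 5233 and 287 CPM early. CLU was singled out after its values were seen.

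Late against before, 14 of the 30 were positive and 16 negative, with a median of -0.15, and 0 passed the adjusted threshold. Of those higher in 4 of 4 tumors, VSIG4, a macrophage receptor for C3 fragments (1.07 ± 0.55), C5AR2 (0.87 ± 0.48) and C1QA (0.84 ± 0.58) had the largest fitted changes. Of those lower in 4 of 4, SUSD4 (-2.73 ± 1.16), CSMD1 (-1.91 ± 0.96) and C8G (-1.10 ± 0.99) did, and SUSD4 and C8G were near 0 CPM in several libraries. Late against early, 27 of the 30 were negative, with a median of -1.33. Of the 30, 10 were lower in 4 of 4 tumors, as were 17.4% of all genes. The 10 were led by CSMD1 (-4.48 ± 1.05), C4BPA (-3.88 ± 1.31) and ITGB2 (-3.10 ± 0.55).

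**Figure D4:**
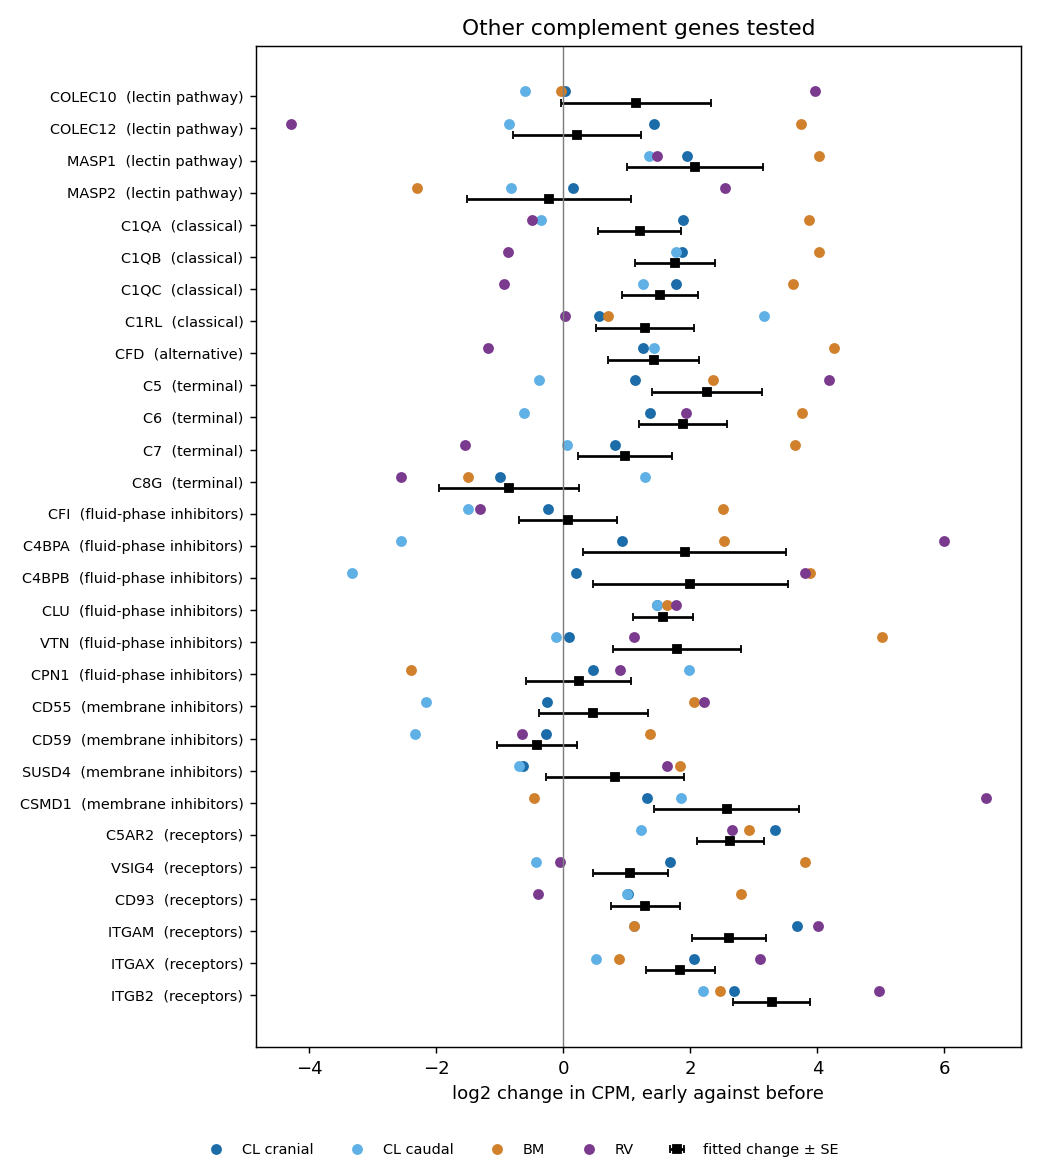
Log2 change in CPM, early against before, of 29 of the 30 other complement genes tested, by tumor (colored points) with the fitted change and its SE (black squares), grouped by role. The fitted change is positive for 26 of the 29 plotted, and the points of CLU lie close together while those of C4BPA and CSMD1 are spread widely.

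Markers of several cell types moved with the members. All 8 macrophage genes had a positive fitted change early (median 2.30), and their summed level was 142 to 428 CPM before treatment, 757 to 1238 CPM early and 202 to 683 CPM late. All 8 endothelial genes did as well (median 1.94), with sums of 73.2 to 159 CPM before, 135 to 1707 CPM early and 82.5 to 258 CPM late. All 7 T cell genes were positive too (median 1.90), with sums of 16.1 to 38.7 CPM before, 30.5 to 555 CPM early and 36.0 to 106 CPM late. The sums of these 3 lists were higher early than before in 4 of 4 tumors. The neutrophil, epidermal and fibroblast lists differed in direction between tumors. The neutrophil sum went from 41.8 to 6715 CPM in RV and from 136 to 540 CPM in CL cranial, but from 2112 to 115 CPM in CL caudal and from 51.0 to 42.2 CPM in BM. The epidermal sum was higher early in both CL tumors and RV and lower in BM (3483 CPM before and 1423 CPM early), where 2 of its genes were at 0 early and 4 late. The fibroblast sum was higher early in BM alone, at 28409 CPM against 1298. The macrophage and endothelial genes were above 0 in every library. Of the 8 hepatocyte genes, which mark the main source of plasma complement, 2 to 6 were at 0 in every library but early CL cranial, and their sum reached 515 CPM in early RV. The part of these cell types in the results was not tested.

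Interferon response genes moved in the same direction. Of 12 listed, 10 had a row, and all 10 had a positive fitted change early (median 2.64). In edgeR's test 9 were under an unadjusted p of 0.05 and higher, as were 7.70% of all genes. Of the 10, 6 were higher in 4 of 4 tumors, against 10.8% of all genes. The summed level of the 10 was 307 to 1258 CPM before, 1491 to 4756 CPM early and 246 to 1873 CPM late.

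Across the 13 libraries, after each tumor's mean log2 CPM was removed, the members differed in which marker lists they were closest to, and part of the order depended on the RV libraries. These correlations describe libraries that share dogs and processing, and no test was made. CFB (r = 0.96), C5AR1 (0.94) and CFP (0.93) were closest to the mean of the interferon response genes. C5AR1 (0.93) and CFP (0.90) were nearly as close to the macrophage genes. Time was not removed and several lists were higher early, so a shared early rise enters these values. SERPING1 was closest to the endothelial genes (0.86), and C2 to the endothelial (0.79) and macrophage genes (0.77). C3AR1 was closest to the mast cell (0.88) and macrophage genes (0.85). The highest values of C1R and C3 were 0.60 with the endothelial genes and 0.59 with the mast cell genes. C1S was nearest to the fibroblast genes (0.62) and opposite to the epidermal (-0.75) and neutrophil genes (-0.70). Without the RV libraries C1R had r = 0.93 with the endothelial and 0.92 with the macrophage genes, and C3 had r = 0.84 with the mast cell genes. C2 was then closest to the macrophage genes (0.92, against 0.81 for the endothelial genes), SERPING1 had 0.90 with the macrophage and 0.88 with the endothelial genes, and CFP had 0.92 with the endothelial and 0.88 with the interferon response genes. CFB (0.89) and C5AR1 (0.93) were still closest to the interferon response genes. Without RV, C1S had r = 0.83 with the endothelial genes, 0.38 with the fibroblast genes, -0.22 with the epidermal genes and 0.37 with the neutrophil genes (9 libraries).

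Between members, C2 and SERPING1 (r = 0.94), CFP and C5AR1 (0.92), and CFB and CFP (0.90) were most alike, C1R and C1S had r = 0.82, and C1S and CFB had the lowest value (-0.46). Without RV the pair of C1S and CFB had r = 0.79, while C2 and SERPING1 had 0.95 and CFP and C5AR1 0.91. C2 and CFB, 416 bases apart, had r = 0.30.

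**Figure D5:**
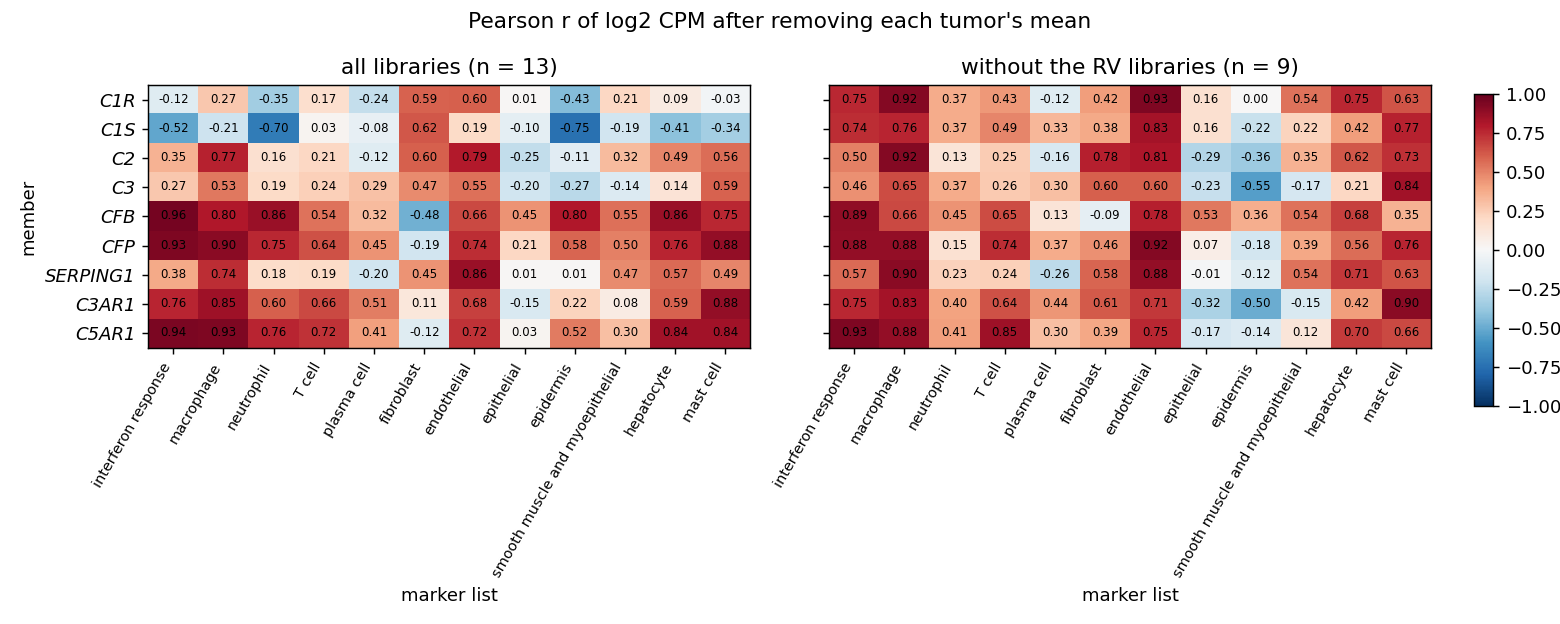
Pearson r between each member (rows) and the mean log2 CPM of each marker list (columns) after removing each tumor's mean, over all 13 libraries (left) and without the RV libraries (9, right). CFB, CFP and C5AR1 have r of 0.93 or more with the interferon response genes over all libraries. CFP (0.90) and C5AR1 (0.93) are nearly as close to the macrophage genes. C1S changes sign for the interferon response genes, from -0.52 to 0.74, without RV.

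Relative to the summed counts of the macrophage genes, C5AR1 was higher early than before in 3 of 4 tumors. Neither receptor is in the marker lists, so these percentages are ratios of counts and not parts of a whole. For C5AR1 the ratio was 1.19% before and 4.53% early in CL cranial, 0.992% and 1.84% in CL caudal, and 3.84% and 12.1% in RV. In BM it was 4.12% and 3.55%. C3AR1 relative to the same genes was 10.5% before and 11% early in CL cranial, 8.05% and 6.29% in BM and 7.54% and 6.90% in RV. In CL caudal it was 25.2% and 10.4%. C5AR1 thus differed more than the macrophage list did in CL cranial, CL caudal and RV, and the ratio of C3AR1 differed most in CL caudal. Relative to the neutrophil gene counts, C5AR1 went the other way in RV, at 22.6% before and 2.24% early. In the mammary tumors that ratio was higher early: 2.39% and 9.89% in CL cranial, 0.201% and 12.1% in CL caudal, and 11.4% and 97.8% in BM. The neutrophil sum itself was lower early in CL caudal and BM and higher early in CL cranial and RV. Which cells gave the C5AR1 counts was not tested.

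The genes whose tumor-centered pattern was most like that of each member, among all genes tested, over 13 libraries, were the following. For C1R they were PLAT (r = 0.97) and TSPAN32 (0.94), and C1S was most like PIK3IP1 (0.96). C2 was most like MDK (0.96), and C3 was most like KLF3 (0.89) and PTPN2 (0.85), the lowest values of the 9. For CFB they were TBC1D2 (0.99) and IFIH1 (0.97), a sensor of viral RNA, and for CFP they were CD37 (0.98) and ICAM3 (0.97), both leukocyte surface proteins. SERPING1 was most like ENG (0.97), an endothelial receptor, and WASF2 (0.97). C3AR1 was most like GPR182 (0.93) and LYVE1 (0.93), and C5AR1 like IL7R (0.98) and FAM78A (0.98). Before the tumor means were removed, r was lower for some pairs, down to 0.12 for C3AR1 with LYVE1 and -0.37 for C3 with PTPN2. These genes were picked for the highest r among all genes tested, so high values come in part from the picking. Values without the RV libraries are not given for them.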

How the data were processed

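Strand-specific RNA-seq libraries were made from 13 canine tumor biopsies. Per the methods, the authors used Strand NGS for alignment to CanFam4.0. The table they deposited holds 1 raw read count for each gene symbol and library. The counting rule was not given in the sources used here. The deposited counts were used as they stand, and TMM normalization in edgeR, which the authors also used, was repeated.

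Genes with low counts were removed with filterByExpr (minimum count 10), which left 20118 of 43427. edgeR 4.0.16 (R 4.3.3) was used for the quasi-likelihood test with time group and tumor as terms (7 residual degrees of freedom), and DESeq2 1.42.0 for an alternative. The tumor was the block because the libraries of a tumor come from 1 mass. The mean correlation of deviations from the group means was 0.59 within a tumor and -0.20 between tumors for the before and late libraries, and 0.23 and -0.07 for the before and early libraries. Log2 CPM values had a prior count of 2, and the late RV sites were averaged for changes within a tumor. Figures and tables were made with Python 3.11 tools and the edgeR script was tested on simulated data. No library pair agreed within sampling noise (lowest chi-square per degree of freedom 44.5). Nothing says that biopsies were taken in replicate. With the tumor as block, p-values measure how unevenly the changes over time ran across the tumors of 3 dogs, of which 2 tumors share a dog. The late RV sites entered as separate libraries, so the spread between them within 1 mass is part of that measure.

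The members and gene lists were chosen with earlier results of these data known. Named were all 9 members, the complement genes with the 3 largest fitted changes in each direction among those alike in 4 of 4 tumors, the C1q chains, and the 2 genes most like each member, without LOC symbols. A few genes that this rule or the complement list would name are not reported here. Interactions, the leaving out of each late RV site and the ratios of members were chosen after seeing the data. Gene positions are from the RefSeq table of UU_Cfam_GSD_1.0, in which 42574 symbols (98.0%) matched. Transcript lengths and sequences were not used here, so ratios of counts between genes were compared only across libraries, and promoters were not searched.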

Additional observations from a re-analysis of the deposited data

Results flagged for a closer look

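Of 27 sets of libraries (9 members in 3 time groups), 1 held a library far from the others: CFB in the early CL caudal library, at 18.7 CPM, where the gap to the next library was 0.847 of the whole range on the log2 scale. About 1 set in 20 would be so by chance.

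In 9 of 36 comparisons the change in 1 tumor was opposite to that in every tumor it was set against. The share of all genes that meet this rule is not given here, so the count is not a result particular to the members. The rule set no minimum size of change, and some of the changes were small. C1R early against before was -2.32 on the log2 scale in RV and 2.05 on average in the mammary tumors, and the interaction had an adjusted p of 0.0987 in edgeR. Late against before, CFP was -0.17 in RV and 0.98 in the mammary tumors, and C5AR1 was -0.40 and 1.55, both with an adjusted p of 0.998 for the interaction. The other 6 set BM against the CL tumors, late against before, and the interaction of BM against all other tumors had adjusted p of 0.618 for C2, 0.728 for C3, 0.774 for SERPING1, 0.823 for CFB and 0.946 for C1R in edgeR, and that of C1S was 0.03 on the log2 scale. C1R was 0.63 in BM and -0.71 on average in the CL tumors, C1S was 0.28 and -0.24, C2 was 2.99 and -0.80, C3 was 2.24 and -1.23, CFB was -1.70 and 0.44, and SERPING1 was 2.09 and -1.56. Each tumor had 1 library per time here, apart from the late RV sites.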

How the results depend on the processing

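The early against before comparison called 1 gene in edgeR, 0 with DESeq2 size factors, no replicate block, dog as block, late RV sites summed, CL tumors summed, only the compared time groups, or any tumor or late RV site left out (range 0 to 0), 17 without the filter and 956 with DESeq2's Wald test, of which 4 were members. Late against before called 0 genes, and 7 with the Wald test. Late against early called 2, 1081 without the filter (3 members), 4809 with the Wald test (4 members), and 0 with no replicate block, dog as block, summed libraries, only the compared groups, or any tumor or late RV site left out. The cause was not tested. Members called were 0 under all other settings. Members higher in 4 of 4 tumors early were 5 under each setting tried, and those lower late than early were 4, with 3 to 5 under the others.

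Signs of members late against before, none called, turned as follows: SERPING1 (0.02) to -0.05 with DESeq2 size factors, the Wald test or RV sites summed, -0.01 without the filter, -0.16 with dog as block and -0.23 with only the compared groups; C1R (0.08) to -0.01 with RV sites summed and -0.14 with only the compared groups; C2 (0.08) to -0.07 with dog as block and -0.09 with only the compared groups; and C3 (-0.59) to 0.37 with no replicate block. C1S late against early (-0.28) turned to 0.57 with no replicate block. Leaving out a tumor or late RV site gave ranges across 0 of -0.50 to 0.34 for C1R, -0.14 to 0.38 for C1S, -0.69 to 0.53 for C2, -0.73 to 0.23 for CFB and -0.63 to 0.58 for SERPING1 late against before, -0.30 to 1.01 for C1S and -0.17 to 1.71 for C3 early against before, and -1.12 to 0.52 for C1S late against early.

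Limits are the 4 tumors in 3 dogs, times that differ between dogs, and 7 residual degrees of freedom with a common biological coefficient of variation of 0.672. The lowest member count, 16, limits the precision of CFP in CL caudal before treatment.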
